A study of Apis mellifera with 12 samples.

Results

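The brains of naturally mated honey bee queens (Apis mellifera, with the strain labelled as ligustica) were compared with those of virgin queens, over all genes with enough reads, in 8 of the 12 queens of the series. The members were the 4 mated and 4 virgin libraries, each from the brain of 1 queen, and the other 4 libraries came from queens treated with CO2. All were adult sisters reared from 1 source colony and killed at 8 days of age. Mated queens had been let out of their hives from day 6 and had returned from a flight with a mating plug. Virgin queens had been caged together with the CO2 queens, without narcosis, and returned to their hives unmated. The CO2 queens were caged and narcotised on day 6 and on the following day. They entered the fit to share one estimate of the spread, and also entered the read filter and the library scaling. Direct comparisons of mated with CO2 queens are given for some genes. Mated and virgin queens therefore differed in flight, mating, caging and ovary state together, and these cannot be told apart. At dissection, the methods state, mated queens had developing eggs and semen whereas virgin queens had neither. Values for single queens are given in the order mated queens 1, 4, 6 and 7 and then virgin queens 1, 2, 4 and 6.

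A honey bee queen mates within a short period early in adult life, stores the sperm and then lays eggs for years without mating again. The change from virgin to laying queen alters her response to light, flight, pheromone production and ovary activity. Odorant binding proteins carry odour molecules to receptors in the antenna, although many are also made in other tissues. The fat body, the insect counterpart of liver and adipose tissue, makes storage and lipid transport proteins, releases trehalose as the circulating sugar and lies close to the brain in the head.

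Between 16632447 and 20677514 reads were counted on genes in each mated queen, and between 13118041 and 15542612 in each virgin queen. A single gene, GB49544, which is not annotated with a name or ortholog in the sources used here, took 13.7%, 23.2%, 42.7% and 32.9% of the counts of the mated queens, against 0.162%, 0.153%, 2.88% and 2.89% in the virgin queens. The groups did not overlap, but its log2 fold change of 4.98 ± 1.27 (SE) had an adjusted p of 0.0836. TMM, the scaling used, adjusts library size so that most genes do not change, and its factors ran from 0.556 to 1.03 in mated queens and from 1.06 to 1.37 in virgin queens. Levels are counts in 1e+06 counts (CPM) of the TMM-scaled library. On this scale 3 counts corresponded to 0.176 to 0.271 CPM in mated queens and 0.148 to 0.215 CPM in virgin queens, a floor for detection that covers counting error only. Markers of the brain itself could be checked only through brp and syt, because only genes that the study listed carry a name. Both had counts in every queen, but brp lay at this floor in mated queens 6 and 7 and in virgin queen 6.

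Of 13038 genes tested, 157 (1.2%) had an adjusted p under 0.05 in edgeR's quasi-likelihood test, 124 of them (0.951%) higher and 33 (0.253%) lower in mated queens. All adjusted p values below come from this test with Benjamini-Hochberg adjustment over all 13038 genes. The rises had a median fold of 4.74 and 37 of them were at least 8-fold. The falls had a median fold of 4.88 and 8 were at least 8-fold. The 4 mated and 4 virgin queens did not overlap in 114 of the rises and in all 33 falls, against 766 (5.88%) of all genes tested. The study lists a Drosophila ortholog for 78 of the rises and 19 of the falls. Scaling by total counts, without TMM factors, put the median log2 change of all genes at -0.79, against -0.08 with TMM, and made 160 calls higher and 4238 lower in mated queens. All changes below are relative to the TMM scale.

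**Figure D1:**
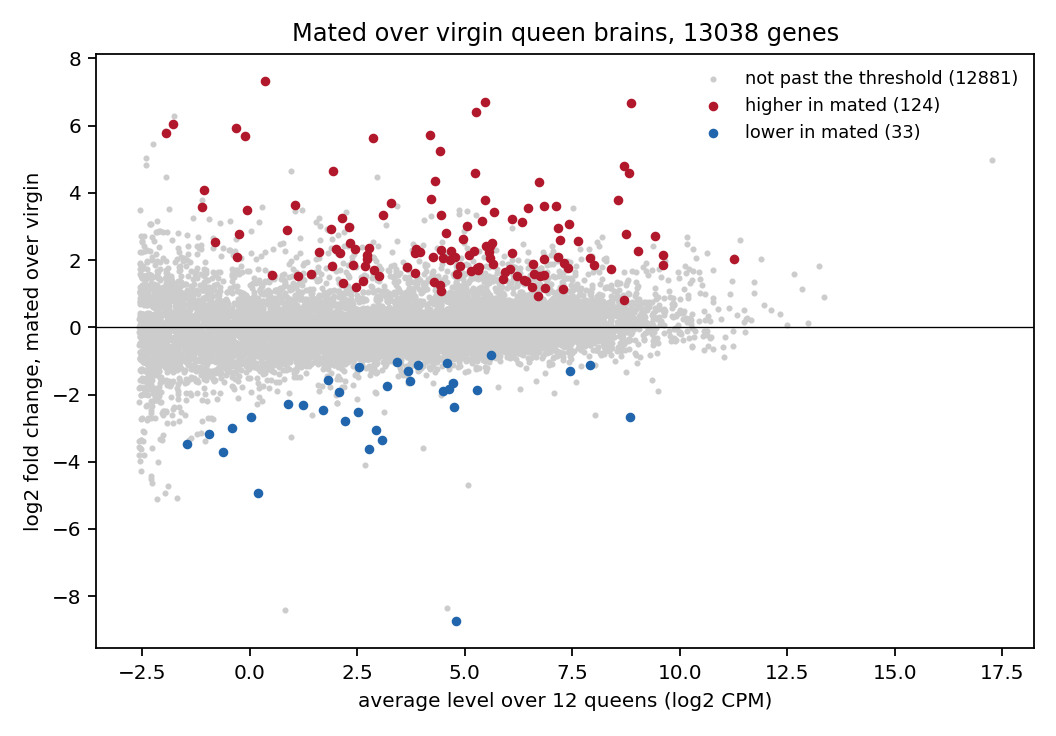
Log2 fold change of mated over virgin queens (vertical axis) against the average level over the 12 queens in log2 CPM (horizontal axis), with 1 point per gene. The 124 genes higher in mated queens (red) and the 33 lower (blue) lie on both sides of the 12881 genes that did not pass the threshold (grey), and the grey point farthest right is GB49544.

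The number of calls depended on which queens entered the fit. Without the CO2 queens, whose spread entered the estimate, there were 44 calls, which held 33 of the 124 rises and 10 of the 33 falls. Of the 47 calls described here with their values 24 were lost in that fit, and they are given as such below. Leaving out mated queens 1, 4, 6 and 7 in turn gave 260, 90, 37 and 52 calls, and leaving out virgin queens 1, 2, 4 and 6 gave 64, 28, 77 and 279. In these 8 fits 19 of the rises and 8 of the falls passed every time. Mated queen 1 had the lowest level of the 4 mated queens in 95 of the 124 rises (76.6%), against 29.5% of all genes tested. It had the highest level in 15 of the 33 falls. Mated queen 1 and virgin queen 1 also carry the suffix br in their names, which no label explains, and the 6 queens of the comparison without the suffix, with the 2 such CO2 queens, gave 80 rises and 17 falls. Genes whose call held in all 8 fits are described first.

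**Figure D2:**
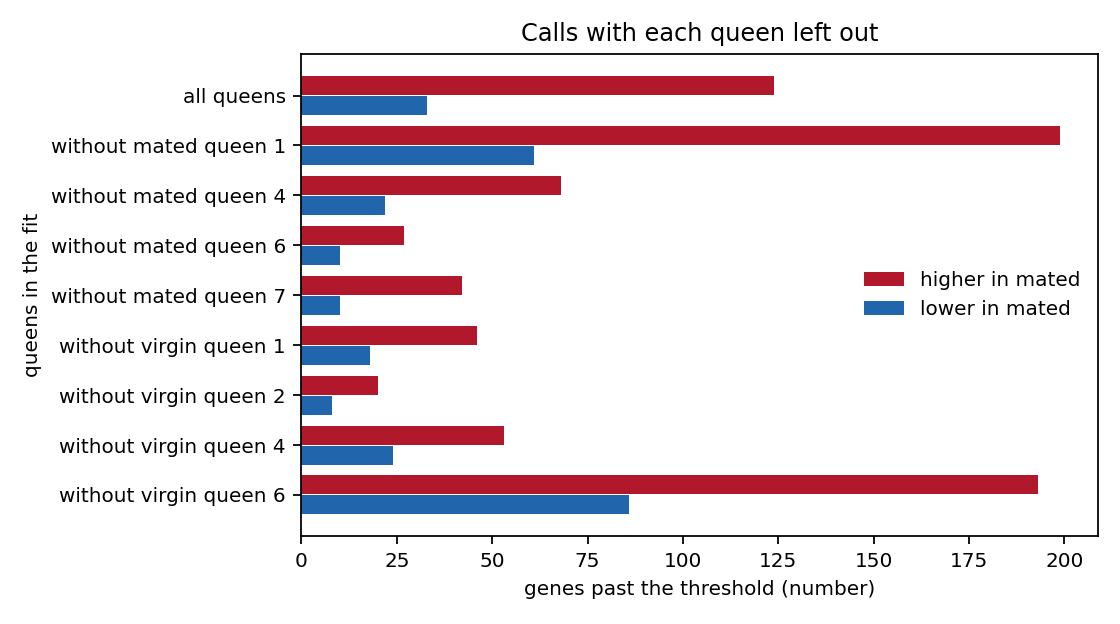
Number of genes past the threshold (horizontal axis), higher (red) or lower (blue) in mated queens, with all queens and with each queen of the comparison left out in turn (vertical axis). The count of rises ran from 20 without virgin queen 2 to 199 without mated queen 1, against 124 with all queens.

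The rise with the lowest adjusted p was that of CG1827 (GB43890), with 123, 188, 259 and 210 CPM in mated queens against 18.1, 30.0, 16.2 and 24.2 CPM in virgin queens. This was a log2 change of 3.14 ± 0.28 (adjusted p = 0.00042), and the 4 CO2 queens, at 17.7 to 28.4 CPM, were in the range of the virgin queens. LanB2 (GB46618), the gamma chain of laminin in the basement membrane in Drosophila, had 772, 1301, 2452 and 1768 CPM in mated queens against 230, 218, 284 and 225 CPM in virgin queens. Every mated queen thus stood far above the highest virgin queen, and LanB2 rose 6.57-fold (log2 2.72 ± 0.32, adjusted p = 0.00356). CG32645 (GB49078) was nearly level among mated queens at 456, 398, 408 and 424 CPM, against 55.0, 37.7, 21.3 and 85.8 CPM in virgin queens (8.44-fold, adjusted p = 0.00356). CG31248 (GB41916) had 49.6, 138, 212 and 125 CPM in mated queens, against 16.7, 9.57, 11.2 and 10.8 CPM in virgin queens, a log2 change of 3.44 ± 0.39. CG10710 (GB51828) was the smallest of these 5 rises, with 47.8 to 87.4 CPM in mated queens against 13.5 to 23.8 CPM in virgin queens (3.45-fold, adjusted p = 0.005). In the direct test of mated over CO2 queens, CG1827, LanB2, CG32645 and CG31248 had log2 changes of 3.05, 2.64, 3.26 and 3.51 (adjusted p = 0.000556, 0.00314, 0.00191 and 0.00191). That test, in which 86 genes (0.66%) passed, shares the mated queens with the comparison described here.

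Of the largest rises, CG7509 (GB40699) had 8.50, 37.9, 139 and 26.2 CPM in mated queens against 0.820, 0.543, 0.786 and 1.94 CPM in virgin queens, and its call also held in all 8 fits (log2 5.72 ± 0.79, adjusted p = 0.00627). GB46629, which has no ortholog in the study's lists, behaved alike, with 11.7, 44.1, 106 and 84.3 CPM against 0.615, 0.296, 1.85 and 3.87 CPM (log2 5.24 ± 0.81, adjusted p = 0.011). In both genes mated queen 1 was the lowest mated queen yet stood above every virgin queen. CG13315 (GB50149) had 297, 1058, 2214 and 1154 CPM in mated queens against 9.48, 7.89, 50.1 and 130 CPM in virgin queens. GB54941 had 43.2 to 149 CPM in mated queens against 2.76 to 4.77 CPM in virgin queens, and GB52318 had 1.88 to 27.8 CPM against 0.168 to 0.717 CPM. The calls of CG13315, GB54941 and GB52318 held in 2, 7 and 3 of the 8 fits, with adjusted p values of 0.128 without mated queen 6, 0.0667 without virgin queen 2 and 0.128 without virgin queen 2 as the highest. Without the CO2 queens the calls of CG13315 and GB52318 were lost (adjusted p = 0.0965 and 0.065).

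A few further genes were picked after their values were seen. mthl10 (GB54942), a G protein-coupled receptor of the Methuselah family in Drosophila, had 26.6, 61.1, 32.1 and 77.5 CPM in mated queens against 3.28, 1.23, 2.19 and 2.87 CPM in virgin queens (20.6-fold, adjusted p = 0.00917, 8 of 8 fits). Arginase, arg (GB51043), which splits arginine into ornithine and urea, had 74.3, 64.9, 100.4 and 93.4 CPM against 13.0, 21.8, 12.6 and 23.3 CPM (4.71-fold, adjusted p = 0.011, 8 of 8 fits). JHBP-1 (GB42557), named for binding of juvenile hormone, the hormone that regulates reproduction and behavioural maturation in many insects, had 306, 409, 297 and 177 CPM against 13.0, 16.1, 5.28 and 62.8 CPM. It rose 12.3-fold (adjusted p = 0.0226, 4 of 8 fits, 0.107 without virgin queen 2 and 0.0627 without the CO2 queens). Jhe (GB53755), the esterase that breaks juvenile hormone down, had 345, 544, 634 and 741 CPM in mated queens against 37.7, 68.9, 182 and 262 CPM in virgin queens. Its groups did not overlap either, but it did not pass (log2 2.04 ± 0.54, adjusted p = 0.0899). In 2 called genes no virgin queen had a single count, GB47648 with 26 counts over the mated queens and Osi12 (GB50570) with 21. Against a floor of 3 counts over the virgin group, the pooled counts of the mated queens were 11.6-fold and 9.36-fold higher. These ratios leave out counting error in the mated queens and the spread among queens. Without the CO2 queens neither call held (adjusted p = 0.107 and 0.134).

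The 7 falls described first were all without overlap, and CG18431 and Wnt2 were the most abundant of them. Or43a (GB52375), an odorant receptor gene in Drosophila, had 0.879, 0.793, 0.783 and 1.08 CPM in mated queens, against 6.25, 20.7, 10.6 and 6.31 CPM in virgin queens (12.3-fold lower, adjusted p = 0.005). CG10407 (GB42799) had 1.93, 2.02, 0.870 and 0.813 CPM in mated queens against 15.7, 21.9, 9.94 and 11.2 CPM in virgin queens (10.2-fold lower, adjusted p = 0.005). GB42552 and CG6296 (GB42553), a lipase family gene in Drosophila, have consecutive numbers and fell together. GB42552 was at 0.609 to 2.40 CPM in mated queens against 8.47 to 16.1 CPM in virgin queens, and CG6296 was at 0.542 to 1.51 CPM against 5.52 to 8.48 CPM. CG9357 (GB46749), a chitinase family gene in Drosophila, had 1.70, 2.45, 0.870 and 1.35 CPM in mated queens against 8.45, 15.7, 7.64 and 5.52 CPM in virgin queens (5.80-fold lower, adjusted p = 0.00937). CG18431 (GB49260) had 5.62, 8.94, 8.53 and 11.2 CPM in mated queens against 28.2, 52.5, 59.6 and 37.4 CPM in virgin queens (5.19-fold lower, adjusted p = 0.00916). Wnt2 (GB53249), a secreted signalling protein, was added after its values were seen, with 25.5, 21.6, 12.01 and 13.3 CPM in mated queens against 84.4, 62.5, 58.6 and 57.7 CPM in virgin queens (3.63-fold lower, adjusted p = 0.0124). All 7 of these calls held in each of the 8 fits.

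The largest fitted fall was that of CG32654 (GB53114), at 0.0586, 0.433, 0 and 0 CPM in mated queens against 65.9, 19.9, 3.14 and 147 CPM in virgin queens. The virgin queens spanned a wide range, and the call (log2 -8.75 ± 1.75, adjusted p = 0.03) held in 2 of the 8 fits, with an adjusted p of 0.115 without mated queen 6. CO2 queens had 2.42 to 80.0 CPM of this gene.

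**Figure D3:**
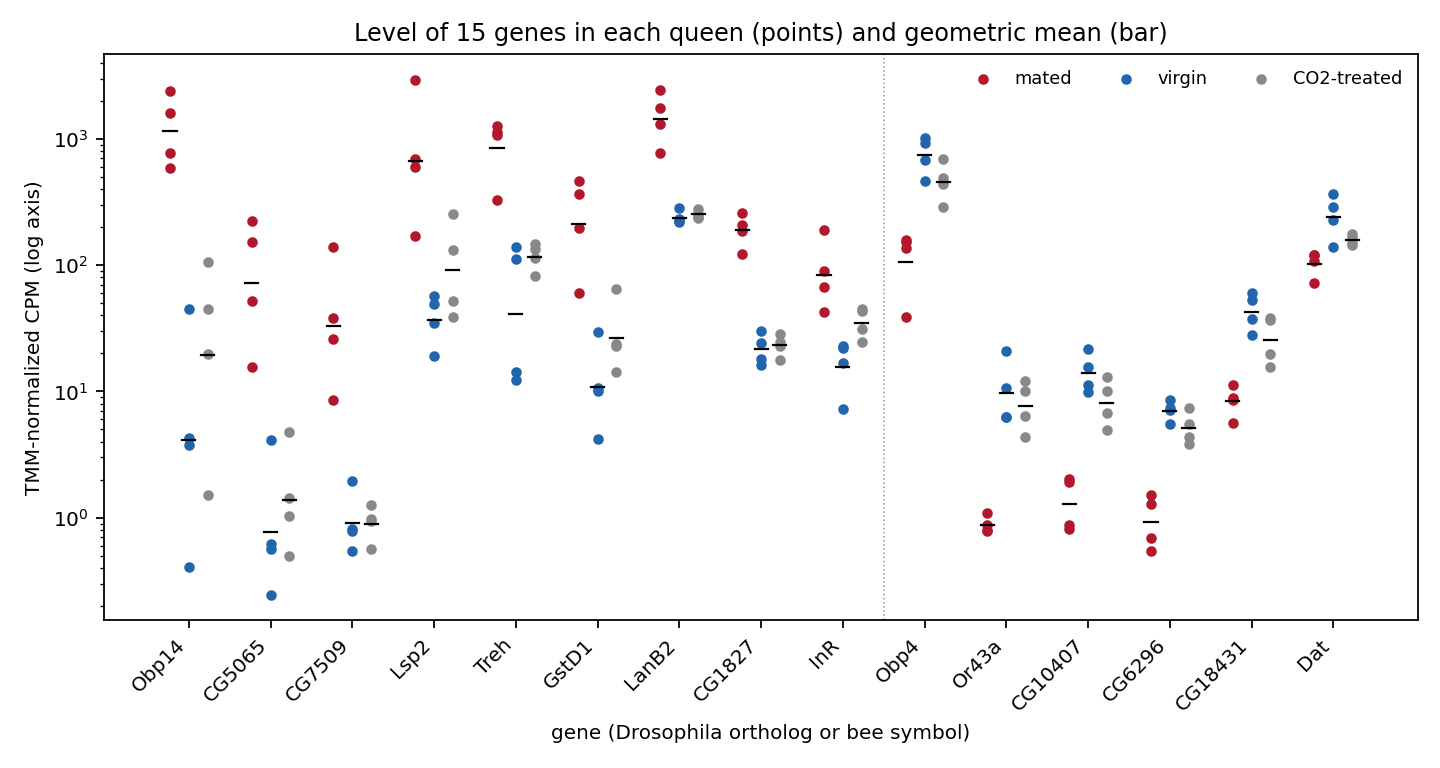
TMM-normalized level in CPM (vertical log axis) of 15 genes in each mated (red), virgin (blue) and CO2-treated (grey) queen, with the geometric mean of each group as a bar. In the 9 genes left of the dotted line every mated queen lies above every virgin queen, and in the 6 genes right of it every mated queen lies below.

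The genes were further grouped by role. The members of every group were taken from genes that the study had called in some comparison of these 12 libraries, so that a count or median within a group is no independent evidence of its direction. Of the 1088 genes so called by the study, 11.2% rose and 2.67% fell in the test used here. Their median log2 change was 1.35 and 71.5% of the changes were positive, against a median of -0.08 over all genes tested, so that a positive median near 1.35 sets no group apart from the genes it was drawn from. The medians of muscle, of basement membrane and matrix, of transcription factors and of trehalose and hexose metabolism, 1.34 to 1.52, were near that value.

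Brains were sequenced whole, and in such samples fewer cells of a type and less RNA per cell cannot be told apart. The summed level of 3 fat body markers, RfaBp and both Lsp2 genes, was 9752, 17755, 25301 and 20073 CPM in mated queens against 4703, 2200, 7148 and 5339 CPM in virgin queens. All 3 were higher in mated queens on average and 1 of them, Lsp2 (GB51698), passed the test. Most of the sum was RfaBp in every queen, and RfaBp did not pass (adjusted p = 0.0717). The summed level of 10 muscle markers was 1162, 14337, 16919 and 6754 CPM in mated queens against 1342, 1089, 1345 and 5198 CPM in virgin queens, with mated queen 1 among the virgin queens. The 2 hemocyte markers summed to 843 to 2647 CPM in mated queens against 319 to 1446 CPM in virgin queens. The 6 photoreceptor markers summed to 53.2 to 213 CPM in mated queens against 67.5 to 747 CPM in virgin queens. The 2 neuron markers also separated the groups, with sums of 184, 278, 172 and 374 CPM in mated queens against 36.1, 35.4, 138 and 129 CPM in virgin queens. Nearly all of that sum was syt, and brp had a negative log2 change (-1.57, adjusted p = 0.286). No marker of these 5 lists was at 0 in any queen. Their part in the changes described here was not tested. Markers of head glands and of glia were not matched. All matched markers came from genes that the study had called in some comparison of these libraries. A separation of their sums is therefore no independent evidence about a cell type. Only 3 of 7 fat body and 2 of 18 neuron marker names were found.

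**Figure D4:**
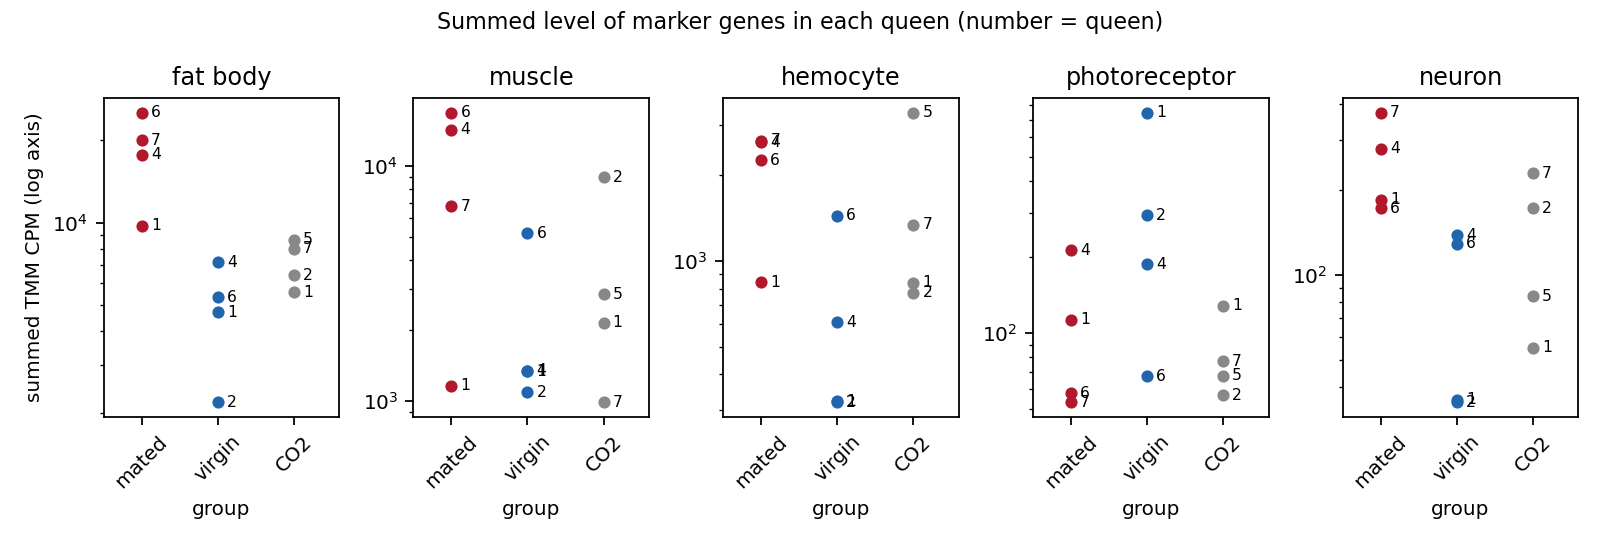
Summed TMM-normalized CPM (vertical log axes, 1 per panel) of the markers of 5 cell types in each mated (red), virgin (blue) and CO2-treated (grey) queen, labelled with the queen's number. The fat body sum, at 9752 to 25301 against 2200 to 7148 CPM, and the neuron sum, at 172 to 374 against 35.4 to 138 CPM, separated the mated from the virgin queens, whereas the muscle, hemocyte and photoreceptor sums overlapped. RfaBp made up most of the fat body sum and syt most of the neuron sum. All markers were drawn from genes that the study had called in these libraries.

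Carriers of odours changed in both directions. Of 9 odorant and pheromone binding genes 4 rose, 1 fell and 4 did not pass (median log2 change 2.04). Obp14 (GB46223), an odorant binding protein, had 774, 592, 1607 and 2411 CPM in mated queens against 0.410, 4.24, 3.76 and 45.1 CPM in virgin queens. This was the largest rise among genes with an average of at least 1 log2 CPM and no overlap (log2 6.66 ± 1.45, adjusted p = 0.0437), and CO2 queens ran from 1.50 to 105 CPM. Obp17 (GB46226) had 36.4, 240, 191 and 158 CPM in mated queens against 2.31, 7.50, 24.1 and 33.4 CPM in virgin queens (9.30-fold, adjusted p = 0.0491). CSP3 (GB52324), a chemosensory protein whose fly ortholog is listed as PebIII, was the most abundant of them, with 3376, 6528, 6819 and 3583 CPM in mated queens against 879, 868, 1020 and 2170 CPM in virgin queens (4.11-fold, adjusted p = 0.0351). Another PebIII gene, GB52326, rose at a very low level, 0.360 to 1.39 CPM in mated queens against 0 to 0.143 CPM in virgin queens. Its 0, 1, 1 and 2 counts in virgin queens all lay below the floor of 3 counts. Obp4 (GB53372), listed with the fly gene Pbprp2, went the other way, with 136, 153, 38.8 and 158 CPM in mated queens against 1021, 922, 466 and 678 CPM in virgin queens (6.36-fold lower, adjusted p = 0.0139). Its call held in 7 of the 8 fits (0.0549 without virgin queen 2), whereas those of Obp14, Obp17, CSP3 and GB52326 held in 2, 2, 2 and 3 (0.151, 0.164, 0.128 and 0.111 without virgin queen 2). These 4 calls were also lost without the CO2 queens (adjusted p = 0.0693, 0.148, 0.119 and 0.0857). Obp21 (GB46230), Obp16 (GB46225), Obp13 (GB46222) and one more PebIII gene (GB43823) had log2 changes of 1.99, 1.47, 2.69 and -1.89 and did not pass.

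Of 10 odorant receptor genes 2 fell, none rose and 8 did not pass (median log2 change -1.53). At an unadjusted p under 0.05 there were 8 (80%), including GB50001 with a positive change. The share was 69.4% in the 1088 genes called by the study, from which the list was drawn, and 15.9% in all genes tested. Beside GB52375, another gene listed with Or43a, GB52376, had 0.879, 0.360, 0.522 and 0.271 CPM in mated queens against 1.49, 3.70, 4.38 and 1.94 CPM in virgin queens (5.46-fold lower, adjusted p = 0.0393, 3 of 8 fits, 0.145 without mated queen 7 and 0.0871 without the CO2 queens). CO2 queens had more of GB52376 than mated queens, at 3.14 to 10.3 CPM (log2 -3.48 for mated over CO2 queens, adjusted p = 0.0115). Or49a (GB40665) was at 0.348 to 1.44 CPM in mated queens against 1.68 to 8.68 CPM in virgin queens and narrowly missed the threshold (adjusted p = 0.0508). Or13a was listed for 3 genes, of which GB52377 was lower in every mated queen (0.994 to 3.28 against 3.80 to 7.19 CPM, adjusted p = 0.0725), while GB50001 and GB50053 had positive log2 changes of 1.33 and 0.89. Genes of 1 family can share reads, and how such reads were counted is not stated.

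Over the 3 lists of fatty acid metabolism, desaturation, and storage and lipid transport, 13 of 14 log2 changes were positive, against 71.5% of the 1088 genes called by the study. Of 7 fatty acid genes 2 rose and 5 did not pass (median log2 change 1.73). CG5065 (GB55263), a fatty acyl-CoA reductase in Drosophila, had 15.7, 52.3, 223 and 153 CPM in mated queens against 0.564, 0.247, 0.618 and 4.09 CPM in virgin queens (84.2-fold, adjusted p = 0.0154, 5 of 8 fits, 0.0659 without virgin queen 2). CG31522 (GB40681), an elongase of long fatty acid chains in Drosophila, had 4.57, 9.66, 4.00 and 6.50 CPM in mated queens against 0.769, 0.296, 0.562 and 1.004 CPM in virgin queens (9.45-fold, adjusted p = 0.0139, 7 of 8 fits, 0.0603 without virgin queen 2). CO2 queens had 2.56 to 10.9 CPM of CG31522, and the log2 change of mated over CO2 queens was 0.02 (adjusted p = 0.986). Among the abundant members, CG6178 (GB51729), an acyl-CoA synthetase in Drosophila, had 2562, 5578, 3972 and 5822 CPM in mated queens. In virgin queens it had 22.6, 25.1, 2041 and 2138 CPM, with virgin queens 4 and 6 far above the other two, and it did not pass (adjusted p = 0.373). Acetyl-CoA carboxylase (CG11198, GB49336), the first step of fatty acid synthesis, was at 727 to 2197 CPM in mated queens against 137 to 862 CPM in virgin queens and overlapped. The list also holds genes of fatty acid breakdown, such as CG12262 (GB42141), an acyl-CoA dehydrogenase of beta-oxidation in Drosophila, with 445, 788, 877 and 1132 CPM in mated queens against 84.4, 139, 384 and 781 CPM in virgin queens (adjusted p = 0.334).

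Of 4 desaturase genes, which place double bonds in fatty acids, 1 rose. desat1 (GB42219) had 2, 62, 88 and 19 counts in mated queens against 0, 0, 0 and 1 count in virgin queens (adjusted p = 0.0212, 4 of 8 fits, 0.104 without virgin queen 2 and 0.0623 without the CO2 queens). The ratio of mated to virgin levels was 229 over pooled counts, with an exact 95% counting interval of 40.5 to 9084. That interval covers counting error only and leaves out the spread among queens. The abundant desat1 gene, GB51238, had 374, 589, 1899 and 612 CPM in mated queens against 53.7, 74.3, 348 and 646 CPM in virgin queens and did not pass (adjusted p = 0.296). Of 3 storage and lipid transport genes, Lsp2 (GB51698), a hexamerin storage protein, rose 27.5-fold, with 169, 595, 2928 and 687 CPM in mated queens against 19.0, 34.8, 48.8 and 56.5 CPM in virgin queens (adjusted p = 0.0212, 4 of 8 fits, 0.0994 without virgin queen 2). RfaBp (GB54507), the precursor of the apolipophorins that carry lipid in the blood, had 9567, 17061, 22237 and 19367 CPM in mated queens against 4659, 2146, 7084 and 5269 CPM in virgin queens. Its groups did not overlap, but it did not pass (log2 1.83 ± 0.45, adjusted p = 0.0717). HEX70b (GB51697), another hexamerin, overlapped at 14.9 to 136 CPM against 13.8 to 24.9 CPM. These 3 genes are also the fat body markers whose sums are given above.

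Of 9 genes of trehalose and hexose metabolism 3 rose and 6 did not pass (median log2 change 1.52). Treh (GB43575), trehalase, which splits the blood sugar trehalose into glucose, had 331, 1076, 1272 and 1132 CPM in mated queens against 14.3, 12.4, 111 and 139 CPM in virgin queens (13.8-fold, adjusted p = 0.0284). Tps1 (GB45758), which makes trehalose, had 275, 556, 634 and 749 CPM in mated queens against 213, 83.5, 214 and 155 CPM in virgin queens (3.33-fold, adjusted p = 0.0378). Sodh-2 (GB49321), a sorbitol dehydrogenase, had 520, 1286, 956 and 1427 CPM against 129, 150.0, 230 and 358 CPM (4.83-fold, adjusted p = 0.0491). Genes that make and that split trehalose thus rose together. Their calls held in 2, 1 and 2 of the 8 fits, and the highest adjusted p values were 0.0898 without mated queen 6, 0.155 without mated queen 7 and 0.167 without virgin queen 2. None of the 3 calls held without the CO2 queens (adjusted p = 0.105, 0.115 and 0.0678). Pfrx (GB40168) and Hex-A (GB47079), both of glycolysis or its control, did not overlap between groups but did not pass, with adjusted p values of 0.0764 and 0.101. The glycolysis gene Gapdh1 (GB50901) was the only member with a negative log2 change and did not overlap either, with 8.03, 8.87, 2.70 and 4.15 CPM in mated queens against 10.8, 25.7, 13.6 and 14.9 CPM in virgin queens (log2 -1.44 ± 0.44, adjusted p = 0.137). Aldh (GB49240) had 3520 to 10498 CPM in mated queens against 166, 198, 2950 and 3788 CPM in virgin queens.

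In insulin signalling, InR (GB49662), the insulin receptor, rose 5.63-fold, with 42.8, 66.6, 189 and 89.1 CPM in mated queens against 16.8, 7.25, 22.9 and 22.0 CPM in virgin queens (adjusted p = 0.0212, 4 of 8 fits, 0.071 without virgin queen 2 and 0.0699 without the CO2 queens). CO2 queens were at 24.6 to 44.6 CPM, and mated over CO2 queens gave a log2 change of 1.43 (adjusted p = 0.184). PDK1 (GB43004), a kinase downstream of the receptor, had 98.0, 122, 137 and 227 CPM in mated queens against 60.5, 21.8, 88.4 and 69.2 CPM in virgin queens and did not pass (adjusted p = 0.117). No other gene of the pathway carries a name in the lists used.

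Of 20 cytochrome P450 and detoxification genes 4 rose, none fell and 16 did not pass (median log2 change 1.64). GstD1 (GB50265), a glutathione S-transferase, had 60.0, 367, 461 and 198 CPM in mated queens against 4.20, 10.1, 10.7 and 29.6 CPM in virgin queens (20.0-fold, adjusted p = 0.0166, 5 of 8 fits, 0.0817 without virgin queen 2). Cyp4c3 (GB47270) had 149, 112, 173 and 133 CPM against 23.3, 23.1, 10.1 and 66.1 CPM (4.63-fold, adjusted p = 0.0441, 1 of 8 fits, 0.154 without virgin queen 2). Cyp304a1 (GB47885) and Cyp9f2 (GB43711) rose 5.05-fold and 3.65-fold at low levels, up to 15.3 and 13.3 CPM in mated queens (2 of 8 fits each, with 0.111 and 0.126 without virgin queen 2). Of these 4 calls that of GstD1 alone held without the CO2 queens, where the others had adjusted p values of 0.0994, 0.065 and 0.099. The most abundant members were uneven among virgin queens. Cyp6a13 (GB49876) had 6869, 11431, 8136 and 14795 CPM in mated queens against 44.5, 99.7, 6275 and 12400 CPM in virgin queens (adjusted p = 0.648). Cyp6g2 (GB47279) and Ugt86Dd (GB54460) likewise had 37.4 and 11.1 CPM in virgin queen 1 and 973 and 1634 CPM in virgin queen 6, and neither passed.

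**Figure D5:**
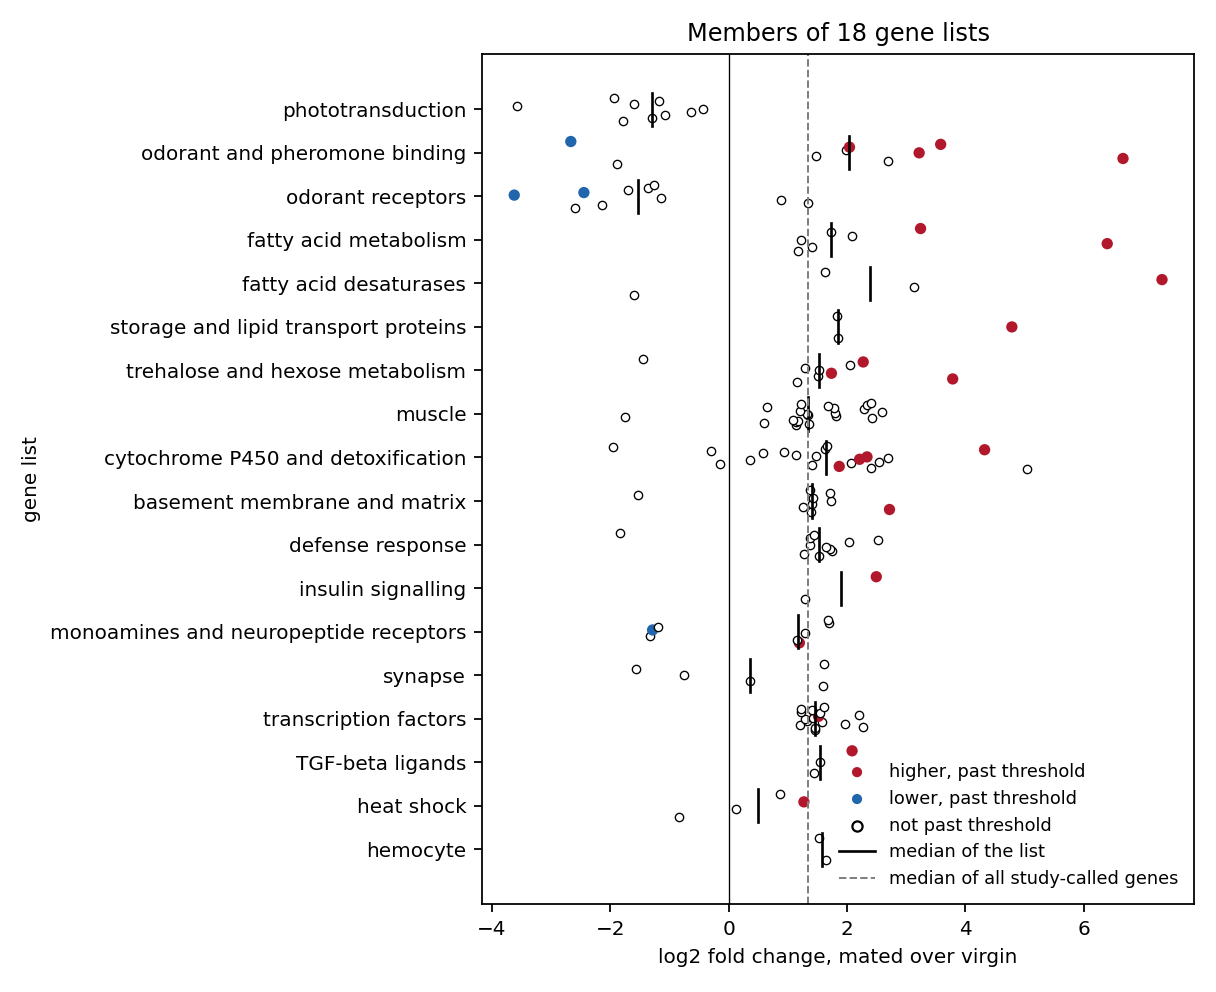
Log2 fold change of mated over virgin queens (horizontal axis) for each member of 18 gene lists (rows), filled in red or blue where it passed the threshold and open where it did not, with the median of each list as a bar and that of the 1088 genes called by the study as a dashed line. Phototransduction has 9 open points left of 0 and muscle has 20 of 21 open points right of 0 with its median beside the dashed line, while odorant binding genes lie on both sides.

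Of 9 genes of the basement membrane and matrix LanB2 alone rose (median log2 change 1.41). LanB1 (GB48203), the beta chain of laminin, had 212, 265, 749 and 266 CPM in mated queens against 149, 114, 190.1 and 107 CPM in virgin queens, without overlap (adjusted p = 0.0929). LanA (GB49929), the alpha chain, was at 617 to 1576 CPM against 94.95 to 649 CPM and overlapped. Papilin, Ppn (GB46795), did not overlap, at 449 to 704 CPM in mated queens against 143 to 357 CPM in virgin queens (adjusted p = 0.0845). Among 3 TGF-beta ligands mav (GB55516) rose 4.24-fold, with 12.3, 34.6, 64.9 and 33.3 CPM in mated queens against 8.25, 5.23, 12.7 and 7.96 CPM in virgin queens. Mated queen 1 was below virgin queen 4 in mav, and the call (adjusted p = 0.0326) held in 1 of the 8 fits, with 0.123 without mated queen 6, and was lost without the CO2 queens (0.11).

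Of 16 transcription factor genes 1 rose, 15 did not pass and all 16 log2 changes were positive, between 1.21 and 2.26. Doc1 (GB50858), a T-box factor, had 2.75, 4.83, 2.61 and 2.89 CPM in mated queens against 1.18, 0.987, 1.18 and 1.22 CPM in virgin queens (2.86-fold, adjusted p = 0.0284, 2 of 8 fits, 0.104 without virgin queen 2 and 0.115 without the CO2 queens). Eip75B (GB47224), a nuclear receptor of the ecdysone response, had 270, 291, 563 and 339 CPM in mated queens against 168, 47.7, 184 and 92.0 CPM in virgin queens, without overlap (adjusted p = 0.0648). The neuronal POU factor vvl (GB50962) did not overlap either, at 80.6 to 156 CPM against 9.03 to 78.2 CPM (adjusted p = 0.158). The others named by level, slbo (GB44204) and kay (GB42049), overlapped.

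Genes of monoamine and peptide signalling changed in both directions. Of 8 genes 1 rose, 1 fell and 6 did not pass. Dat (GB51044), named in Drosophila for dopamine N-acetyltransferase, which inactivates monoamines, had 107, 120.1, 120.0 and 72.1 CPM in mated queens against 289, 368, 140.0 and 227 CPM in virgin queens (2.44-fold lower, adjusted p = 0.0382, 3 of 8 fits, 0.124 without virgin queen 2 and 0.154 without the CO2 queens). Trh (GB44366), tryptophan hydroxylase of serotonin synthesis, was lower in every mated queen, at 12.7, 14.6, 7.31 and 11.3 CPM against 45.6, 31.2, 19.3 and 18.8 CPM, and narrowly missed the threshold (adjusted p = 0.055). Nep5 (GB42889), a neprilysin, which cuts peptides outside the cell, had 5.62, 6.92, 11.4 and 7.77 CPM in mated queens against 3.02, 3.35, 3.59 and 3.87 CPM in virgin queens (2.29-fold, adjusted p = 0.0393, 2 of 8 fits, 0.153 without mated queen 6 and 0.182 without the CO2 queens). Akhr (GB53230), the receptor of adipokinetic hormone, which mobilises fat body stores, had 28.2, 76.0, 58.1 and 88.0 CPM in mated queens against 12.3, 14.6, 19.5 and 30.9 CPM in virgin queens (adjusted p = 0.0643). The adenosine receptor AdoR (GB51506) was at 20.1 to 40.5 CPM against 40.2 to 88.9 CPM (adjusted p = 0.0644). In the synapse list none of 5 genes passed, with 3 at an unadjusted p under 0.05, 0 called by DESeq2 and by the tagwise exact test and 3 by the exact test with one common dispersion. Synaptotagmin, syt (GB54319), which triggers transmitter release, had 183, 278, 172 and 374 CPM in mated queens against 31.8, 34.0, 136 and 129 CPM in virgin queens (adjusted p = 0.179).

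Small heat shock genes were uneven. Of 4 heat shock genes 1 rose, l(2)efl (GB45910), with 26.6, 36.1, 50.9 and 41.3 CPM in mated queens against 17.5, 21.3, 8.59 and 16.7 CPM in virgin queens (2.41-fold, adjusted p = 0.0441, 1 of 8 fits, 0.173 without mated queen 6 and 0.158 without the CO2 queens). CO2 queens had 8.21 to 10.7 CPM of it, and mated over CO2 queens gave a log2 change of 2.05 (adjusted p = 0.00566). GB45906 and GB45913, also listed with l(2)efl and more abundant, did not pass (adjusted p = 0.941 and 0.379). The change of GB45906 was negative in at least 1 of the fits with a queen left out. Hsp83 (GB45495), the cytosolic Hsp90, was at 76.9 to 128 CPM in mated queens against 100.6 to 267 CPM in virgin queens (adjusted p = 0.188).

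No gene of the phototransduction, muscle, defence and hemocyte lists passed edgeR's quasi-likelihood test in the fit to all queens without further terms. At an unadjusted p under 0.05 there were 5 of 9, 12 of 21, 9 of 11 and 2 of 2 genes, against 69.4% of the 1088 genes called by the study, from which the lists were drawn, and 15.9% of all genes tested. The shares in phototransduction and muscle, 55.6% and 57.1%, were below that of the genes called by the study. DESeq2 called 2, 5, 3 and 0 of them, the exact test with tagwise dispersions 2, 3, 2 and 0 and that with one common dispersion 6, 18, 11 and 2. With total counts in place of TMM the quasi-likelihood test called 5, 1, 1 and 0. With queen number as a block it called 4 defence genes, and with the suffix br as a term 3, but none of the other lists. All 9 phototransduction genes had negative log2 changes (median -1.30), and the lowest adjusted p among them was 0.0866, but in 3 of them, ninaC, norpA and Calx, the change was positive in at least 1 of the fits with a queen left out. Rh2 (GB50034), an opsin of the ocelli in Drosophila, had 2.29, 11.8, 0.0870 and 0.181 CPM in mated queens against 130, 27.9, 15.1 and 1.004 CPM in virgin queens. The arrestin Arr2 (GB51068), which switches opsins off, had 74.2, 128, 29.3 and 25.0 CPM against 437, 201, 108 and 30.1 CPM. Virgin queen 6 was within the range of the mated queens in both, and CO2 queens had 0.312 to 2.38 CPM of Rh2. Among 21 muscle genes 20 had positive log2 changes (median 1.34), of which those of Mlc1 and Mlc2 were negative with total counts in place of TMM, as shown by sls (GB47977), a titin-like protein, with 621, 6662, 10234 and 3744 CPM in mated queens against 652, 393, 779 and 1724 CPM in virgin queens (adjusted p = 0.164). Mated queen 1 lay among the virgin queens in sls and was the lowest mated queen in 19 of the 21 muscle genes. Of 11 defence genes 10 had positive log2 changes (median 1.53), and the exception was Def1 (GB41428), an antimicrobial defensin, at 25.7, 43.9, 17.9 and 14.5 CPM against 29.1, 15.4, 34.8 and 288 CPM. PGRP-SA (GB51741), a sensor of bacterial cell walls, had 170, 252, 629 and 489 CPM in mated queens against 20.5, 48.5, 87.7 and 221 CPM in virgin queens (adjusted p = 0.142). Hml (GB50121), a clotting protein of hemocytes, had 803, 2559, 2142 and 2579 CPM against 315, 315, 556 and 1412 CPM (adjusted p = 0.213). The lists do not hold every gene of these roles, since 60 of the 157 called genes have no ortholog name. CG6124 (GB50509), known in Drosophila as eater, a receptor with which hemocytes take up bacteria, is in neither the defence nor the hemocyte list and was picked after its values were seen. It rose 3.77-fold, with 206, 335, 487 and 202 CPM in mated queens against 62.6, 66.5, 119 and 78.3 CPM in virgin queens (adjusted p = 0.0166, 5 of 8 fits, 0.0765 without virgin queen 2 and 0.0617 without the CO2 queens).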

How the data were processed

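Brain RNA of 12 queens was sequenced by the authors as single-end reads. Trimmomatic was used for trimming and SortMeRna for removing ribosomal RNA, TopHat aligned what remained to the Amel 4.5 genome, and SAMtools idxstats did the counting. The authors deposited raw read counts of 15314 genes without normalization, and these counts were the only values used. A second deposited table of scaled values was not used. How reads shared by similar genes were counted is not given in the sources used here. The 1094 genes without a count in any queen and others with fewer than 10 counts summed over the 12 libraries were left out.

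Counts were fitted with edgeR 4.0.16 in R 4.3.3 (TMM, quasi-likelihood F-test, 3 groups, 9 residual and 4.25 prior degrees of freedom), with Benjamini-Hochberg adjustment over 13038 genes and a threshold of 0.05. Standard errors are the absolute log2 change divided by the square root of F. Overlap was judged on the log2 scale (prior count 2). The fit was tested on simulated data. The p-values measure the spread among sister queens of 1 colony. Alternatives were other tests (exact tests, DESeq2 1.42.0), scalings, filters, terms and each queen left out. Figures were drawn with Python 3.11.15 and matplotlib 3.10.9.

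Named genes were the top 8 calls by fold in each direction (groups not overlapping, mean log2 CPM 1 or more), the 5 lowest adjusted p in each direction, list members that passed with up to 4 of the most abundant that did not, and GB49544 with the genes taking the largest shares of counts. Not all of these are described, and genes added after their values were seen are marked as such. The members and lists were chosen with earlier results of these data known. Drosophila ortholog names are those the study lists, and bee symbols come from RefSeq (Amel_HAv3.1) through accessions, with 221 of 479 accessions matched and 22 carrying a symbol other than a locus number.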

Additional observations from a re-analysis of the deposited data

Results flagged for a closer look

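In 8 of the 178 sets of 4 queens examined (2 groups for each of the 89 genes described with their values), 1 queen stood apart from the other 3 on the log2 scale by Dixon's criterion, and chance flags about 1 in 20. Mated queen 1 was the low queen in Treh (GB43575, 330.6 CPM against 1076 to 1272 CPM in the other mated queens), in Hml (GB50121, 802.6 against 2142 to 2579 CPM) and in the PebIII gene GB43823 (11.95 against 328 to 629 CPM). Mated queen 6 was low in Obp4 (GB53372, 38.82 against 136 to 158 CPM), and mated queen 4 was high in Doc1 (GB50858, 4.83 against 2.61 to 2.89 CPM). In virgin queens, virgin queen 2 was low in Doc1 (0.987 against 1.18 to 1.22 CPM), virgin queen 1 was high in Cyp9f2 (GB43711, 5.02 against 1.97 to 2.30 CPM) and virgin queen 6 alone had a count of desat1 (GB42219, 0.0717 CPM against 0 CPM). Doc1 had only 23, 20, 21 and 17 counts in virgin queens 1, 2, 4 and 6, and desat1 had 1 count in virgin queen 6. Dixon's criterion takes no account of counting error.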

How the results depend on the processing

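Of 157 calls (124 higher, 33 lower in mated queens), the fit to mated and virgin queens alone gave 44 (33 and 11) and the fit without the 4 queens with suffix br gave 97 (80 and 17). With that suffix as a term there were 255 calls, 206 of them higher. The exact test gave 490 calls with tagwise dispersions (363 and 127) and 829 with one common dispersion (654 and 175), and DESeq2 gave 640 (450 and 190). Total counts without TMM factors gave 4398 calls, 4238 of them lower. Leaving out 1 queen at a time gave 28 to 279 calls, 20 to 199 higher and 8 to 86 lower. DESeq2's size factors, TMM on libraries without GB49544, no filter, filterByExpr and the robust fit gave 147 to 160 calls. Of the 1865 values under these alternatives of the 89 genes described with their values, none reversed, 1521 kept their side of the threshold, 215 lost it and 129 gained it. These 89 genes do not include Calx, GB43276 and the l(2)efl gene GB45906, which the naming rule also held. The changes of these genes had either sign among the fits with a queen left out. The absence of reversals thus holds only for the 89 genes, a set that leaves out these named genes. Among the 150 members of the gene lists, 11 that did not pass had the other sign under at least 1 alternative, 3 of them of phototransduction, 2 of muscle and 4 of the cytochrome P450 list. On the TMM scale 3 counts correspond to 0.176 to 0.271 CPM in mated queens and 0.148 to 0.215 CPM in virgin queens. Levels printed below that rest on fewer than 3 counts in a queen and lie under the floor for detection.

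The queen numbers name different animals in each group. As a replicate block they gave 177 calls, 157 higher and 20 lower, of which 81 and 10 were among the 124 and 33. Deviations of same-numbered mated and virgin queens correlated at 0.359, 0.0454 and 0.0979, so the numbers were not taken to pair the queens. Mated queen 6 correlated best with virgin queen 6, whereas mated queens 1 and 4 correlated best with virgin queens 2 and 1 (0.389 and 0.365).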

Other observations

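Among the 157 called genes 14 pairs carry consecutive identifier numbers, and in 13 of these both members changed the same way, 11 pairs higher and 2 lower in mated queens. They include the Or43a genes GB52375 and GB52376, GB42552 with the lipase family gene CG6296 (GB42553), and GB54941 with mthl10 (GB54942). The exception was arginase (GB51043), which rose, beside Dat (GB51044), which fell. Of all 157 calls 124 were higher, so that many pairs of calls share a direction whatever their numbers. The pairs GB52324 with GB52325 and GB52325 with GB52326 share a gene. Consecutive numbers among all genes tested were not counted. Positions were not looked up, and reads shared between similar neighbours were not examined.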
